A study of Apostichopus japonicus with 9 samples.

Results

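The transcripts described here are those that lay lowest in the gut of sea cucumbers kept in concentrated sea water while standing at similar levels in control and in diluted sea water. They were picked from their own measured levels. Estimated counts were scaled by median-of-ratios size factors, taken from the 12361 gene models with counts in all 9 libraries. A gene model was kept if its mean scaled count over the 9 libraries was at least 10, if its highest library at high salinity was below the lowest of the 6 other libraries, and if its means at low and normal salinity, each with 1 added, were within 2.5-fold. The rule asked for up to 100 gene models ranked by the gap, that is (lowest other library + 1) divided by (highest high-salinity library + 1). It found 90, so every gene model that met it is a member. They are 90 of 27269 gene models with any count and of 12545 above the minimum. Because this rule used all 9 libraries and every contrast among the groups, the values below are a description and carry no test.

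The sea cucumber Apostichopus japonicus is a farmed echinoderm. Echinoderms are largely osmoconformers, so their body fluid follows the salt content of the water around them. Cells of such animals keep their volume by moving inorganic ions and small organic osmolytes, such as free amino acids, across their membranes. The intestine takes up nutrients from swallowed sediment and sea water and is therefore in direct contact with the outside salinity.

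Poly(A) RNA of the intestine was sequenced in 3 libraries per group, each from the pooled RNA of 3 animals. The control group (SD30) stayed at a salinity labelled 30, and the other groups were brought to 20 (SD20) or 40 (SD40) by steps of 2.5 every 6 h, after all groups, of 20 animals each, had been held at 15 °C for a week and fed daily. How long the animals then stayed at that salinity is not stated in the labels, nor whether the 3 pools of a group were drawn from separate tanks. The p-values therefore rest on pool-to-pool spread, which may be partly technical. Estimated counts summed to 2834168 to 4060892 per library. The size factors differed far more than the totals. Relative to the total, the factor was 0.565 in SD30 replicate 1 and 0.494 in SD30 replicate 2, against 1.05 to 1.48 in the 7 other libraries. In these 2 control libraries the 10 most abundant gene models took 44.6% and 62.5% of counts, against 24.0% to 42.3% in the others. No gene names come with the AJAP identifiers, and 0 of the 27269 identifiers matched the RefSeq gene table of the species, so no role, protein or promoter sequence is given for any member and the tissue could not be checked against marker genes. In bulk RNA, fewer cells of a type and less RNA per cell cannot be told apart.

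The members were lower in SD40 by about 2-fold in the typical case, with a few near or at 0. The mean of the 6 other libraries exceeded the SD40 mean (each with 1 added) by a median of 2.27-fold, with a range of 1.21 to 71.7. The excess was at least 2-fold for 59 members, at least 5-fold for 12 and at least 10-fold for 6. The median member stood at 40.3, 34.4 and 39.3 scaled counts in the SD20 libraries (replicates 1 to 3), at 44.7, 47.6 and 35.0 in the SD30 libraries, and at 15.7, 16.5 and 16.5 in the SD40 libraries. By the rule all 3 SD40 libraries are low for every member. SD40 replicate 1 was the highest of the 3 for 30 members, replicate 2 for 33 and replicate 3 for 27. Over all gene models above the minimum, the library medians ran from 30.8 to 35.7 scaled counts, with SD40 at 35.7, 32.3 and 30.8.

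**Figure D1:**
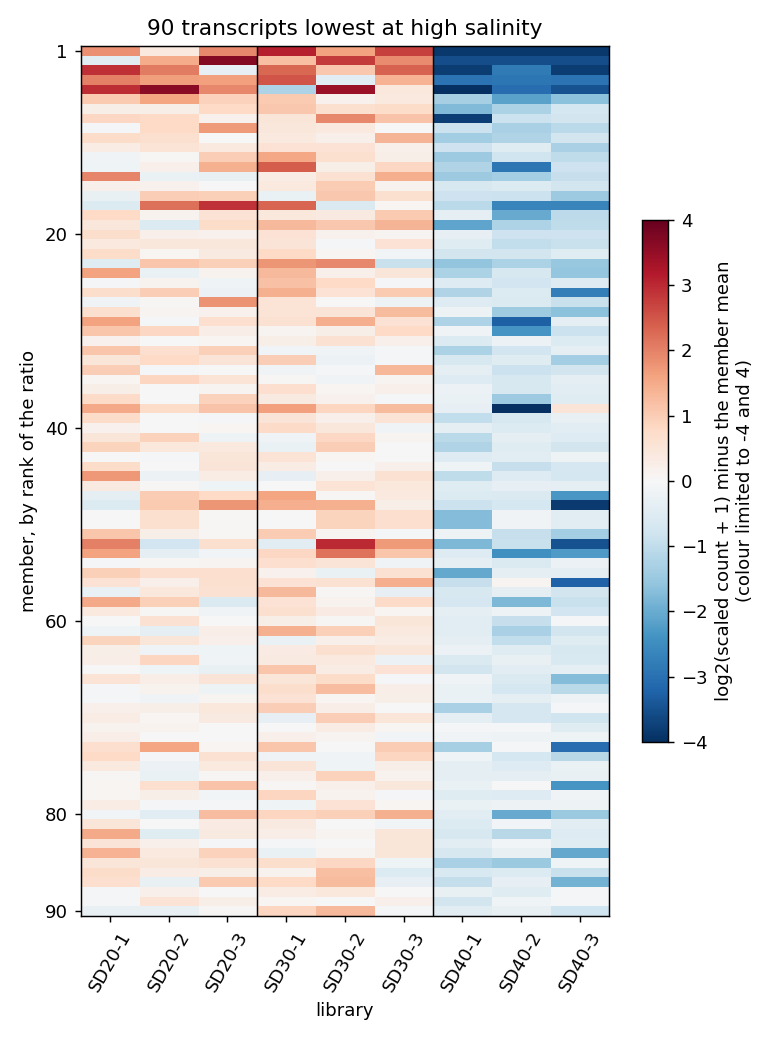
Levels of the 90 members in the 9 libraries, as log2(scaled count + 1) minus the member's mean over libraries, with members ordered by the rank of the gap and black lines between the groups. The SD40 columns are low throughout because the rule requires it, and the deepest values sit in the first 5 rows and in scattered single SD40 libraries further down.

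Such transcripts were few. All 3 SD40 libraries lay below all 6 others for 102 of the 12545 gene models above the minimum, or 0.813%. The 2.5-fold limit on SD20 against SD30 removed 12 of these, 6 higher in SD20 and 6 higher in SD30. The same rule with SD40 as the highest group was met by 112 gene models before any ranking, and with SD20 as the lowest group by 323. Without the 2.5-fold limit, SD20 was the lowest group for 350 gene models, against the 102 for SD40. With libraries scaled to their totals the same counts were 51 for SD20 and 47 for SD40, so the difference between the groups depended on the scaling.

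For most members the gap to the other libraries was narrow. Its median was 1.12, and 42 of 90 members had a gap under 1.1. Only 14 had a gap of at least 1.5, and 6 had at least 2. The last member inside was AJAP21670 (1734 bases), at 36.8 scaled counts in its highest SD40 library and 36.9 in its lowest other library, a gap of 1.0006. The first gene model outside was AJAP21489 (1427 bases), with 0 in all 3 SD40 libraries but also 0 in SD30 replicate 1, and 6.32 to 41.7 in the 5 others. Another gene model had the same gap of 1.0, so which of them is named first is arbitrary. Just outside the separation, 36 gene models had a gap between 0.95 and 1. At the 2.5-fold limit on the side where SD20 was higher, the nearest gene model outside, AJAP14414, had a ratio of SD20 to SD30 means of 2.56 and the nearest member inside, AJAP00593, a ratio of 2.04. On the side where SD30 was higher, AJAP29425 lay outside with a ratio of 0.357 and AJAP25896 inside with 0.473. At the minimum mean, the nearest member stood at 10.2 and the nearest gene model outside at 9.98.

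**Figure D2:**
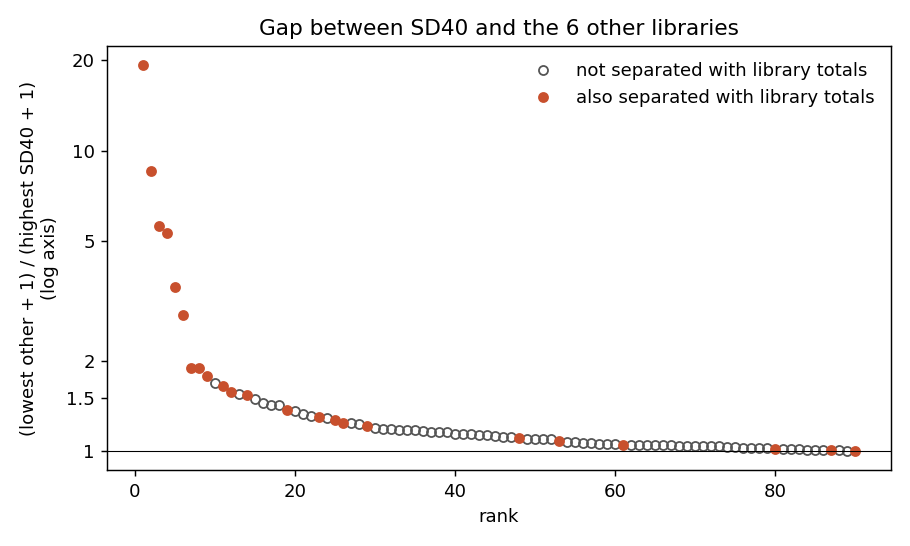
The gap, (lowest other library + 1) / (highest SD40 library + 1) on a log axis, against the member's rank, with filled points for the 23 members that stayed separated when libraries were scaled to their totals. The first 6 members stand at 2.84 to 19.3, and the curve then runs flat towards 1.

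The widest gap belonged to AJAP25896, a gene model of 1272 bases. It stood at 51.1, 18.3 and 54.5 scaled counts in SD20 and at 125, 43.9 and 95.9 in the controls. No read was assigned to it in any SD40 library. With a floor of 3 counts over the SD40 group, its pooled level was at least 44.6-fold higher in SD20 and at least 96.6-fold higher in SD30, by counting error only. It had the smallest edgeR p of all members against either group (log2 fold change -9.54, SE 1.09, edgeR quasi-likelihood adjusted p = 0.235 against SD30, and -8.50, SE 1.09, edgeR adjusted p = 0.365 against SD20). A fitted fold change of a transcript at 0 depends on the prior count and is no bound. The adjusted p for SD40 against SD30 was 4.21e-07 with DESeq2 and 0.0411 without the filter on low counts, and lay above the threshold of 0.05 under the other 17 of 19 alternatives, up to 0.836.

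AJAP22456, of 575 bases, was the other member without any read in SD40. It varied far more in the other groups, at 7.56, 31.9 and 148 scaled counts in SD20 and 26.1, 79.6 and 42.6 in the controls. The SD20 and SD30 libraries overlapped, and SD20 replicate 1 came closest to SD40. Its pooled level was at least 71.5-fold above the same floor in SD20 and at least 51.5-fold in SD30. Its counts were whole numbers in every library, whereas those of AJAP25896 were not.

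In 4 further members the SD40 libraries held 3 reads or fewer in all. AJAP12721 (1353 bases) stood at 104, 57.00 and 10.02 scaled counts in SD20, 66.4, 28.5 and 70.5 in the controls, and 0, 0.970 and 0 in SD40, the last from 1 read. The pooled level was 176-fold higher in SD20 (95% exact counting interval 31.3 to 6982) and 190.4-fold higher in SD30 (33.6 to 7577). It had the second smallest edgeR p among members in SD40 against SD30 (log2 fold change -6.97, SE 1.22, edgeR adjusted p = 0.770). AJAP27473 (1251 bases) was among the most variable outside SD40, at 186, 292 and 90.7 in SD20, 9.32, 262 and 31.3 in the controls, and 0, 1.94 and 1.18 in SD40. Its gap was 3.51, set by SD30 replicate 1. The pooled level was 200.4-fold higher in SD20 (68.3 to 974) and 90.2-fold higher in SD30 (30.4 to 441). AJAP02897 (870 bases) stood at 30.3, 23.9 and 23.3 in SD20, 43.8, 4.65 and 19.5 in the controls, and 0, 0.0582 and 0 in SD40, at most a fraction of 1 read. It was at least 27.6-fold higher in SD20 and 23.2-fold higher in SD30, against the floor of 3 counts over the group. The fourth was AJAP14546 (744 bases, rank 17), with a gap of 1.42. It stood at 3.27, 27.7 and 45.2 in SD20, 29.9, 3.16 and 5.51 in the controls, and 1.93, 0 and 0 in SD40. Before scaling, SD30 replicate 2 held 1.79 estimated counts and SD40 replicate 1 held 2.59, so this gap rested on few reads and on the size factors.

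AJAP16506, a short gene model of 426 bases with whole counts, differed from these in that it was present in every library. It stood at 43.1, 63.1 and 39.3 scaled counts in SD20, 42.9, 22.98 and 26.95 in the controls and 7.44, 3.88 and 5.88 in SD40. The highest SD40 library, at 7.44, was well below the lowest other library, at 22.98. It had the second smallest edgeR p in SD40 against SD20 (log2 fold change -3.03, SE 0.52, edgeR adjusted p = 0.524), and the log2 fold change against SD30 came to -2.34 (SE 0.51, edgeR adjusted p = 0.770). Leaving out each library gave -3.29 to -2.78 and -2.60 to -2.13. AJAP12721, AJAP16506 and AJAP22456 passed the threshold in both comparisons with DESeq2 (adjusted p of 0.000372 to 0.0406) and under none of the other alternatives.

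**Figure D3:**
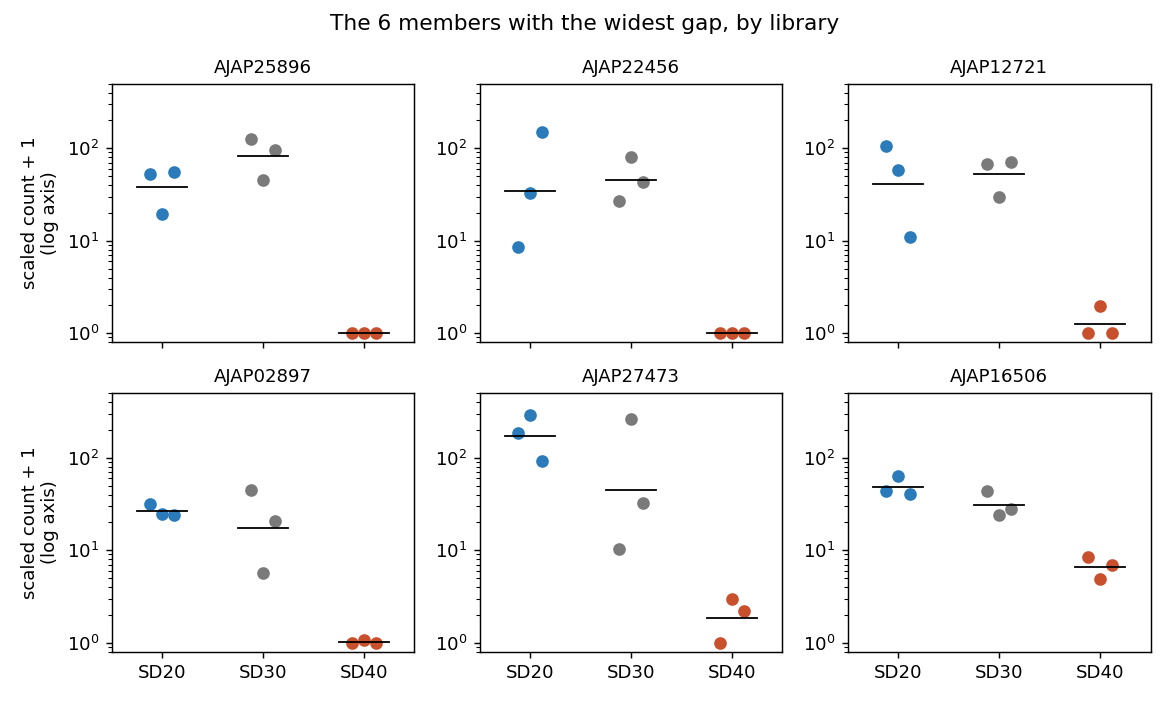
Scaled count + 1 on a log axis for the 6 members with the widest gap, 1 point per library, with a bar at the geometric mean of each group. AJAP25896 and AJAP22456 sit at 1, that is at 0 counts, in all 3 SD40 libraries, and AJAP16506 is the single one of the 6 that was detected in all 9 libraries with at least 3.88 scaled counts.

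The 8 members ranked 7 to 14 had gaps of 1.53 to 1.89 and differed from the other groups by a median of 3.46-fold. AJAP03927 (1091 bases) stood at 47.6, 48.2 and 71.4 scaled counts in SD20, 87.6, 63.6 and 68.7 in the controls and 11.2, 16.5 and 24.7 in SD40. AJAP07321 (1098 bases) was steadier, at 48.4, 57.4 and 50.8 in SD20, 57.8, 58.3 and 45.2 in the controls and 21.6, 27.2 and 15.3 in SD40. In these the control and low-salinity libraries formed a single band, with SD40 beneath it. AJAP03927 was the seventh member that DESeq2 called against SD30, after the first 6 by rank. These 2 were named after their values were seen, as were AJAP02897, AJAP27473, AJAP14546, AJAP18255, AJAP14414, AJAP05417 and AJAP24241.

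Per length, the most abundant members were AJAP24524 and AJAP02471. AJAP24524, of only 270 bases, stood at 1229 ± 99.8 FPKM in SD20, 1185 ± 587 in the controls and 739 ± 45.4 in SD40 (SD, n = 3 each). In scaled counts its libraries were at 847, 745 and 669.9 in SD20, 1807, 1029 and 1245 in the controls, and 502, 605 and 639 in SD40, so that SD20 lay close above SD40. AJAP02471 (1446 bases) stood at 183 ± 4.19 FPKM in SD20, 122 ± 35.6 in the controls and 83.5 ± 7.39 in SD40 (SD, n = 3 each). Its scaled counts were 707, 701 and 626 in SD20, 807, 1239 and 675 in the controls, and 393, 421 and 370.4 in SD40, which is a gap of 1.49 at high counts. In FPKM neither of these members was separated. For AJAP24524, SD30 replicate 2 was at 596 FPKM, below all 3 SD40 libraries (694, 739 and 784). For AJAP02471, SD30 replicate 1 was at 87.96 FPKM, below SD40 replicate 1 at 89.87. Over the 6 SD20 and SD30 libraries the median member had 16.6 FPKM, with a range of 1.91 to 1207, where the median of all gene models above the minimum was 10.9.

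Among the members with the narrowest differences, AJAP18255 (1125 bases) stood at 143, 119.8 and 120.3 scaled counts in SD20, 136, 127 and 110.4 in the controls and 106, 103 and 102 in SD40. Its excess over SD40 was 1.21-fold, the smallest of all 90. The coefficient of variation over the 6 SD20 and SD30 libraries had a median of 32.8% for members and 55.4% for all gene models above the minimum, and the rule favours low variation.

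Control and low salinity were compared next, within the limit that the rule sets. For 23 members the SD20 mean was under 0.8 of the SD30 mean, for 17 the SD30 mean was under 0.8 of the SD20 mean, and 50 lay between, all with median-of-ratios scaling. All 3 SD20 libraries lay above all 3 SD30 libraries for 2 members (2.22%, where 11.1% of gene models above the minimum did so) and below them for 7 (7.78%, against 10.6%). The limit on the ratio keeps these shares down. AJAP00593 (654 bases) was the member highest in SD20 relative to SD30. It stood at 128, 94.3 and 115 scaled counts in SD20, 54.04, 53.03 and 56.5 in the controls, and 23.8, 33.9 and 44.7 in SD40. Its scaled counts thus stepped down with salinity without overlap (SD20 against SD30: log2 fold change 1.07, SE 0.38, edgeR adjusted p = 0.377). The step from SD30 to SD40 depended on the scaling. Its log2 fold change was -0.63 with TMM, -0.17 with library totals and -0.08 with FPKM. In FPKM, SD30 replicate 2 (11.62) lay below all SD40 libraries (12.43 to 20.76). AJAP25896 was the member lowest in SD20 relative to SD30 (log2 fold change -1.05, SE 0.61, edgeR adjusted p = 0.481), with SD20 replicates 1 and 3 above SD30 replicate 2.

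**Figure D4:**
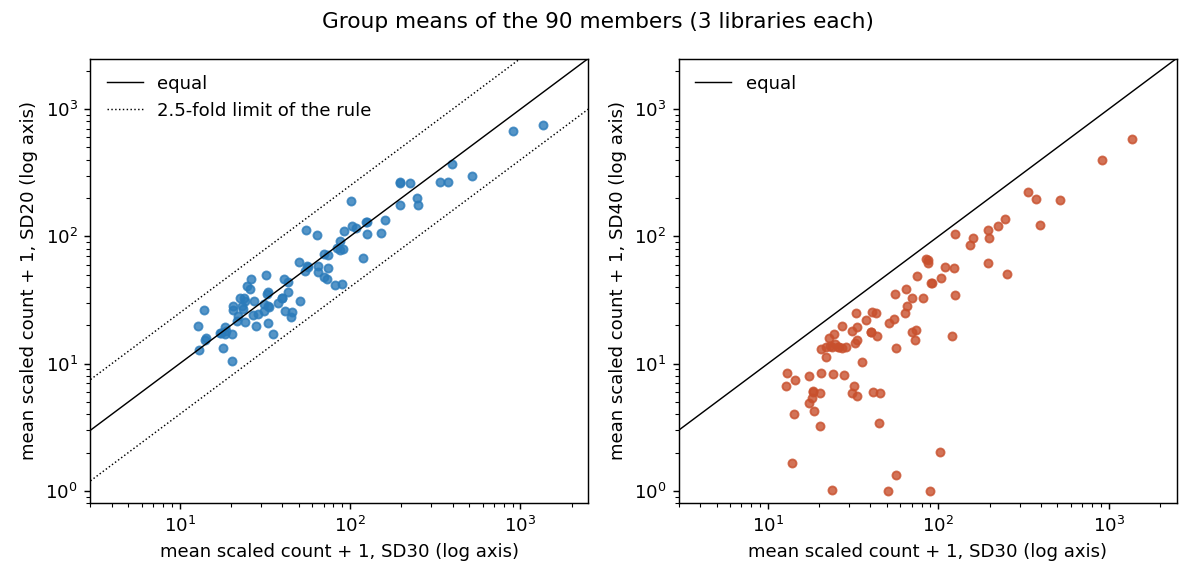
Mean scaled count + 1 of each member in SD20 (left) and SD40 (right) against SD30, on log axes, with the line of equality and, on the left, the 2.5-fold limit of the rule. The left cloud lies along the line within the limit, and on the right every member lies below it, with AJAP25896 and AJAP22456 at 1.

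Fitted across all 14191 gene models tested, no member passed edgeR's quasi-likelihood test with Benjamini-Hochberg adjustment in any comparison. For SD40 against SD30, 0 of 14191 gene models passed (0%), and for SD40 against SD20 1 did (0.00705%), which is not a member. For SD20 against SD30 it was again 0 (0%). At an unadjusted p under 0.05, 43 of 90 members were lower in SD40 than in SD30, where 2.83% of all tested were, and 46 were lower in SD40 than in SD20, against 2.41% of all tested. DESeq2 called 7 members lower in SD40 than in SD30, among 32 of the 10560 gene models with a DESeq2 adjusted p (0.303%). Against SD20, DESeq2 called 7 members lower in SD40, among 12 of 15744 gene models (0.0762%). It gave no adjusted p to 13 members in the first comparison. Of its calls 6 were the same in both, namely the 6 members with the widest gap. A fitted difference of at least 2-fold in the lower direction was found for 55 members against SD30 (10.3% of all tested) and 57 against SD20 (11.1%). In the opposite direction 0 members stood higher in SD40 at an unadjusted p under 0.05 (3.47% of all tested against SD30 and 4.03% against SD20). DESeq2 also called 0 members higher (0.123% of the 10560 and 0.191% of the 15744 gene models). In SD20 against SD30, 1 member was lower (6.67% of all tested) and 1 higher (5.57%) at an unadjusted p under 0.05. By the fit 3 were at least 2-fold lower (16% of all tested). DESeq2 called 0 members there (1.41% lower and 0.44% higher among the 15219 gene models with an adjusted p). The rule used these contrasts, so nothing is read from the counts. The 2 comparisons also share the SD40 libraries.

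The median log2 fold change of the members was -1.13 for SD40 against SD30 and -1.248 for SD40 against SD20. Over all tested gene models it was 0.11 and 0.04. For SD20 against SD30 the members' median was -0.02 and that of all gene models 0.07. With library totals these medians were 0.86 and 0.92, and 3 of 90 members were below 0 in place of 47, so the direction between SD20 and SD30 turned with the scaling. Relative to all gene models the members' median was -0.09 with TMM and -0.06 with totals. With the 3 members at under 1 read in SD40 set to their bounds the medians for SD40 against SD30 and against SD20 were again -1.13 and -1.248. The bounds and the fitted values of these 3 both lie far below the medians, so the medians could not move.

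Membership depended on how the control libraries were scaled. With libraries scaled to their total counts, 23 of the 90 members kept all SD40 libraries below all others. All 90 still lay below the 3 SD20 libraries and below SD30 replicate 3. The separation was lost in the 2 control libraries with the low size factors. SD30 replicate 1 stayed above the highest SD40 library for 40 members and SD30 replicate 2 for 32. All of the first 9 members by rank were among the 23 that remained, and 5 of the 40 ranked after 50 were. In SD40 against SD30, total scaling moved the median of all tested gene models from 0.11 to 0.60 and that of the members from -1.13 to -0.62 on the log2 scale. Relative to all gene models the members' median was -1.248 with TMM and -1.22 with totals, and the SD40 mean was below the SD30 mean for 84 of 90 members with totals.

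**Figure D5:**
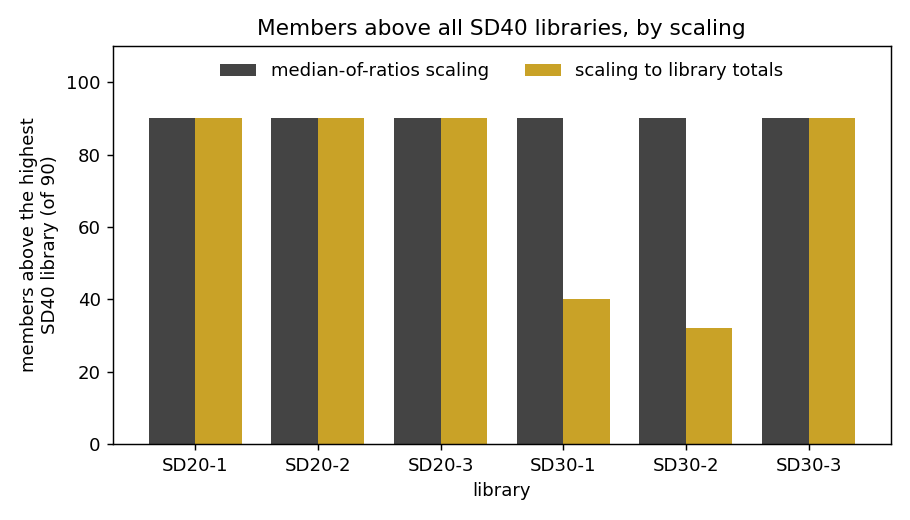
Number of the 90 members for which each SD20 or SD30 library lay above the highest SD40 library, with median-of-ratios scaling (dark bars, 90 by the rule) and with scaling to library totals (yellow bars). With totals the count drops in SD30 replicate 1 (40) and SD30 replicate 2 (32) and is 90 in the 4 others.

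Membership also rested on each SD40 library. With the size factors kept, 485 gene models met the rule without SD40 replicate 1, and in 94 of them (19.4%) that library then also lay below the 6 others, as it did for 12.03% of all gene models above the minimum. Without SD40 replicate 2 these numbers were 253 and 97 (38.3%, against 13.5%), and without SD40 replicate 3 they were 300 and 97 (32.3%, against 14.9%). For the rule with SD20 as the lowest group, the library left out also lay below the others for 43.6% to 66.9% of the gene models chosen without it. For the rule with SD40 as the highest group, it lay above the others for 19.1% to 42.4%. Each set shares its 6 other libraries between choice and check, so a share above that of all gene models is partly built in. The shares are therefore set side by side without a test.

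Outside SD40 the profiles of the members were not alike on the whole. Over the SD20 and SD30 libraries, as deviations from the group means, the median Pearson correlation between pairs of distinct member profiles was 0.03 (quartiles -0.37 and 0.45, 6 libraries, 89 distinct profiles). This is a description over few libraries, which share their depth and scaling. Over all 9 libraries each member correlated with the mean profile of the set at 0.603 to 0.978, as the choice of members requires. The gene models outside the set that were most like the mean profile were AJAP29425 (Pearson r = 0.922), AJAP02296 (0.877) and AJAP02587 (0.855), each over 9 libraries. AJAP29425 missed the set through the 2.5-fold limit, at 13.6, 17.02 and 16.1 scaled counts in SD20, 40.99, 28.3 and 66.9 in the controls and 2.23, 1.94 and 0 in SD40. AJAP02587 lay at 6.01 to 207 in the 6 other libraries and at 0 in all 3 SD40 libraries.

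The members were somewhat shorter than other gene models, which was not tested. Their median length was 976 bases (quartiles 608 and 1425), against 1071 (693 and 1632) for all gene models above the minimum. Models over 2000 bases were 7 of 90 (7.78%), against 16.4%, and models under 500 bases were 14 of 90 (15.6%), against 11.0%. Estimated counts were whole numbers in every library, with no tolerance, for 43 members (47.8%), against 43.7%. Counts that are not whole can arise where reads are shared between similar gene models, so the other 47 members are uncertain where near-identical copies exist. AJAP05417 and AJAP24241, both of 492 bases, had identical estimated counts in every library, at 26.4, 41.4 and 27.1 scaled counts in SD20, 26.2, 49.3 and 41.9 in the controls and 7.21, 23.8 and 19.4 in SD40. They count as 1 profile.

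Zeros occurred only in SD40, since the rule allows none elsewhere. No read was assigned in 1 SD40 library for 8 members, in 2 for 3 members and in all 3 for 2 members, while 77 members had counts in every library. SD40 replicate 3, the library with the lowest total count, had 9 of these zeros, replicate 1 had 6 and replicate 2 had 5. By size factor it was not the shallowest, at 0.850 against 0.537 and 0.566 in SD30 replicates 1 and 2. A transcript at 0 was below detection at this depth and is not shown to be absent. Together the members took 0.278% to 0.321% of counts in SD20, 0.128% to 0.282% in the controls and 0.114% to 0.133% in SD40, so that SD30 replicate 2 at 0.128% was below SD40 replicate 1 at 0.133% in raw share.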

How the data were processed

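Each of 9 poly(A) libraries was made from intestinal RNA pooled from 3 animals, reverse transcribed with random primers and read on a BGISEQ machine (labels' protocols). The values tested were estimated counts, as deposited, which carry no normalization and include fractions. They also deposited FPKM values and the gene model length, per the file headers. The submitters' processing notes list CASAVA 1.5. Which aligner, counter, build or annotation was used is not stated in those sources. A gene model without a line in a library was set to 0.

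Members and classes were chosen with earlier results of these data known. Estimated counts were rounded, then compared by edgeR 4.0.16 under R 4.3.3 (filterByExpr, TMM, robust quasi-likelihood, 1 fit of 9 libraries, group as the only term, Benjamini-Hochberg over all gene models tested, threshold 0.05). Each SE was derived from the fold change and its F statistic (log2 fold change over root F). Alternatives were DESeq2 1.42.0, limma 3.58.1 with FPKM on a log2 scale (pseudocount 1 or 0.1), other scalings, filters and rule settings, the replicate number as a block, and each library left out. Counting intervals are 95% exact (Clopper-Pearson), and they and the floors of 3 counts cover counting error only.

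Identifiers were named by a rule. It took the 2 widest gaps, the last member inside and the first gene model outside, the 2 smallest p against each group, the extremes of SD20 against SD30, the 2 highest in FPKM, the 2 with most SD40 libraries at 0, and the 3 gene models most like the mean profile. Others were chosen after their values were seen. No gene lists by function could be used.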

Additional observations from a re-analysis of the deposited data

Results flagged for a closer look

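With median-of-ratios scaling, the low-salinity and high-salinity libraries of 2 members lay on opposite sides of the control without overlap. All SD20 libraries were above all SD30 libraries in 2.22% of members, against 11.1% of gene models above the minimum. The limit on the ratio keeps the members' share down, and the SD40 side was set by the rule. AJAP00593 was higher in all 3 SD20 libraries than in any SD30 library (log2 fold change 1.07) and lower in all 3 SD40 libraries. AJAP01744, of 2694 bases, did the same with smaller margins (log2 fold change 0.60 for SD20 against SD30), at 42.3, 34.7 and 34.8 scaled counts in SD20, 24.2, 17.7 and 33.04 in the controls and 4.47, 16.5 and 16.5 in SD40. In FPKM the SD40 libraries of both overlapped the controls. AJAP00593 stood at 13.45, 11.62 and 30.4 FPKM in the controls and at 12.43, 15.68 and 20.76 in SD40. For AJAP01744 these values were 1.40, 0.90 and 4.13 in the controls and 0.54, 1.77 and 1.78 in SD40. That the responses differ was not tested here, since the rule fixed the position of SD40. SD40 against SD20 gave an edgeR adjusted p of 0.740 for each of these members, and DESeq2 an adjusted p of 0.0181 for AJAP00593.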

How the results depend on the processing

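No member passed edgeR's test in any of the 3 comparisons without any 1 of the 9 libraries (0 to 0 members called), and all 90 members had a fold change below 0 in both SD40 comparisons in each of those fits. Against SD30 this held for 84 members with library totals and for 80 with limma on FPKM. In the fits without 1 library the sign was largely set in advance. The rule keeps each remaining SD40 library below the others with median-of-ratios scaling. DESeq2 called 7 members against SD30 and 7 against SD20, and edgeR without the low-count filter called 1 against SD30. With library totals the members' median log2 fold change was -0.62 for SD40 against SD30, -1.63 for SD40 against SD20 and 0.86 for SD20 against SD30. With limma on log2(FPKM + 1), with or without a filter, it was -0.48 for SD40 against SD30 and 0.75 for SD20 against SD30, and on log2(FPKM + 0.1) it was -0.52, -1.62 and 0.89 in the same order as for totals. Leaving out each library gave -1.28 to -1.11, -1.33 to -1.12 and -0.20 (without SD20 replicate 1) to -0.027. The rule was met by 38 gene models with library totals, of which 19 were members, and by 39 with FPKM, of which 20 were members. With the rule refitted without each library, 114 to 463 gene models met it and 23 to 73 members stayed among the first 100; fewer libraries to separate let more gene models through, and the 463 and the 23 were without SD40 replicate 1. TMM kept 73 of 90 members.

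Same-numbered libraries correlated in their deviations from the group means at -0.01, 0.13 and 0.05 for SD40 and SD30 and at 0.06, 0.20 and -0.07 for SD40 and SD20. Differently numbered libraries ran from -0.21 to 0.14 and from -0.28 to 0.24. The same-numbered values therefore did not stand out, though with 3 libraries a group they cannot exclude a pairing. With the replicate number as a block the members called stayed at 0 in all 3 comparisons, with medians of -1.10, -1.27 and -0.09. In the fits of 2 groups only, the low-count filter left 72 members in SD40 against SD30 and 87 in SD40 against SD20. Of 491 alternative values for single named gene models, 478 gave the same direction and call, 13 passed the threshold anew (12 of them with DESeq2) and 0 reversed. These values cover both SD40 comparisons, where the rule constrained the members' direction, but SD20 against SD30 only for AJAP00593 and AJAP25896. In the others, leaving out each library moved the latter fold change across 0 for AJAP22456 (log2 -1.28 to 0.84), AJAP12721 (-0.73 to 0.56), AJAP02296 and AJAP02587. It kept its sign for AJAP02471, AJAP16506, AJAP21489, AJAP21670, AJAP24524 and AJAP29425.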

Other observations

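AJAP02532 was a member of 864 bases whose counts were not whole. It stood at 469, 271 and 361 scaled counts in SD20, 504, 292 and 389 in the controls, and 129.5, 0 and 234 in SD40. In SD40 replicate 2, where it had no read, the gene model AJAP06207 (897 bases, also not whole) stood at 333 scaled counts. AJAP06207 was at 0 in 7 of the other libraries and at 1.77 in SD30 replicate 2. Summed over both, SD40 replicate 2 reached 333 and lay above SD20 replicate 2 at 271, so the sum did not separate SD40 from the others. In all, 19 gene models, AJAP06207 among them, were at least 10 times higher in SD40 replicate 2 than in any other library (with 1 added). Whether AJAP02532 and AJAP06207 share sequence was not tested, as no sequence is paired with the identifiers here. Both were singled out after their values were seen.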
